A study of Mus musculus with 3 samples.

Results

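Schwann cells are the glia of peripheral nerves, and 7 genes associated with them and with nerve were examined in the stroma of mouse tumours: Sox10, Foxd3, Ngfr, Ncam1, Cdh19, Pmp22 and Mbp. They were chosen by symbol, and each was represented by the probe set whose annotation gave that symbol alone. All 7 were found among 22087 genes with a single symbol, each with 1 such probe set. RNA was read on Affymetrix arrays in 3 samples, numbered 1, 2 and 3, of 1 group with the genotype label Dicer1 +/-. Tumours were digested, and live cells negative for PECAM1, an endothelial surface protein, and for the fluorescent protein tdTomato, which marked the tumour cells, were sorted as stroma. The series title names the tumours ASD, which the labels do not spell out, and no label states strain, age, sex, the driver of tdTomato or any further allele. Dicer1 +/+ stroma, with which the title pairs this group, was not analysed here, so no genotypes could be compared. The labels do not say that the samples came from separate animals, and every SD therefore measures only the spread between these samples.

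Schwann cells arise from the neural crest. Foxd3 and Sox10 act in the crest and its glial descendants, and Sox10 stays on in Schwann cells, where with Egr2 it drives the genes of myelin, the wrapped membrane that insulates axons. Schwann cells that do not myelinate carry adhesion molecules such as NCAM and the neurotrophin receptor p75, and cells that have lost contact with axons after injury take up a similar state. Several of the 7 genes are not restricted to nerve. Pmp22 is also made by fibroblasts and other cells outside nerve, and Ncam1 by myoblasts and embryonic or regenerating muscle. Ngfr is made by some mesenchymal cells, and Sox10 by melanocytes and the secretory epithelium of salivary glands. The Mbp locus also gives the golli transcripts found in leukocytes.

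Of the 7 genes, Pmp22 varied most between the samples, and it has several starts of transcription: RefSeq (GRCm38.p6) lists 4, while the array gives 1 value for the gene. The 250 bases before the first start and before the second, which lies 2475 bases further on, are shown 5′ to 3′ on the plus strand with each CpG in capitals, because CpG-rich promoters are typical of widely expressed genes.
Pmp22 start 1, chr11:63128732-63128981: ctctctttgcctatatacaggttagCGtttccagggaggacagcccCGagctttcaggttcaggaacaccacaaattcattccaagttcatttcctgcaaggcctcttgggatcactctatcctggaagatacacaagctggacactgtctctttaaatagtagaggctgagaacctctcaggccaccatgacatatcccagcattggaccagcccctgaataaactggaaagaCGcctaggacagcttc
Pmp22 start 2, chr11:63131207-63131456: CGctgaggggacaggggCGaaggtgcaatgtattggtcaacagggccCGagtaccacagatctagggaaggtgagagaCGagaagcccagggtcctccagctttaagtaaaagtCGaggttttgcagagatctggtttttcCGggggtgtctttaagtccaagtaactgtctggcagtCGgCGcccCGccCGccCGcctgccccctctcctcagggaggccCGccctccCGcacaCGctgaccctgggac
The stretch before start 1 held 3 CpGs and 48.8% G and C, and that before start 2 held 14 CpGs and 61.2%. Those before starts 3 and 4, not shown, held 14 CpGs and 64.8%, and 27 CpGs and 73.6%. The median of all 32851 promoter windows in the RefSeq table was 6 CpGs. In rodents and humans Pmp22 is known to have a promoter used mainly by myelinating Schwann cells and another used widely. Which of the 4 starts belong to these, and which were used in these samples, was not tested. Only 6 windows of 300 bases were examined for the 7 genes, 4 for Pmp22 and 1 each for Foxd3 and Ngfr. No window of Sox10, Cdh19, Ncam1 or Mbp was examined, so the search below does not cover these genes. None of the 6 held the SOX core letters ACAAAG or ACAATG or the forkhead letters TGTTTAC on either strand, and these occur in 18.7%, 12.6% and 3.65% of all windows. This says only that those letters are not in these windows.

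The arrays themselves were alike in scale, with medians of 5.35, 5.34 and 5.36 on the log2 scale for samples 1, 2 and 3. The table has no detection calls, and a gene was called detected where its log2 intensity on every array exceeded the 95th percentile of a background set, 1438 probe sets for receptors of smell, pheromones and taste, which stroma should not express. That threshold stood at 5.16, 5.11 and 5.20 in samples 1, 2 and 3. Sample 1 stood apart in sex-linked genes, with Xist, the transcript behind X inactivation, at 9.78 against 3.43 and 3.49 in samples 2 and 3. Sample 2 stood apart in gland genes. These and the sex-linked genes are named with their values already known. Lipf, an oral and gastric lipase, was at 9.24 there, against 3.11 in sample 1 and 3.42 in sample 3. The gland protein Bpifb1 was at 9.36 there, against 3.92 in sample 1 and 4.91 in sample 3. Probes differ in brightness, so levels are compared between samples within a gene and not between genes. With 1 array per sample no difference between samples could be tested, and the comparisons below are descriptions.

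By this threshold 6 of the 7 genes were detected on all 3 arrays (85.7%), beside 60.5% of 20658 named genes outside the background set, and Cdh19 was not. The 6 differed in how far they cleared it. Pmp22, Ncam1 and Mbp also exceeded the 99th percentile of the receptors on every array, a level of 6.37, 6.58 and 6.49 in samples 1, 2 and 3 that 38.1% of named genes passed. Sox10, Foxd3 and Ngfr lay between the thresholds on all arrays. The plot of the 7 genes by sample shows this separation.

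**Figure D1:**
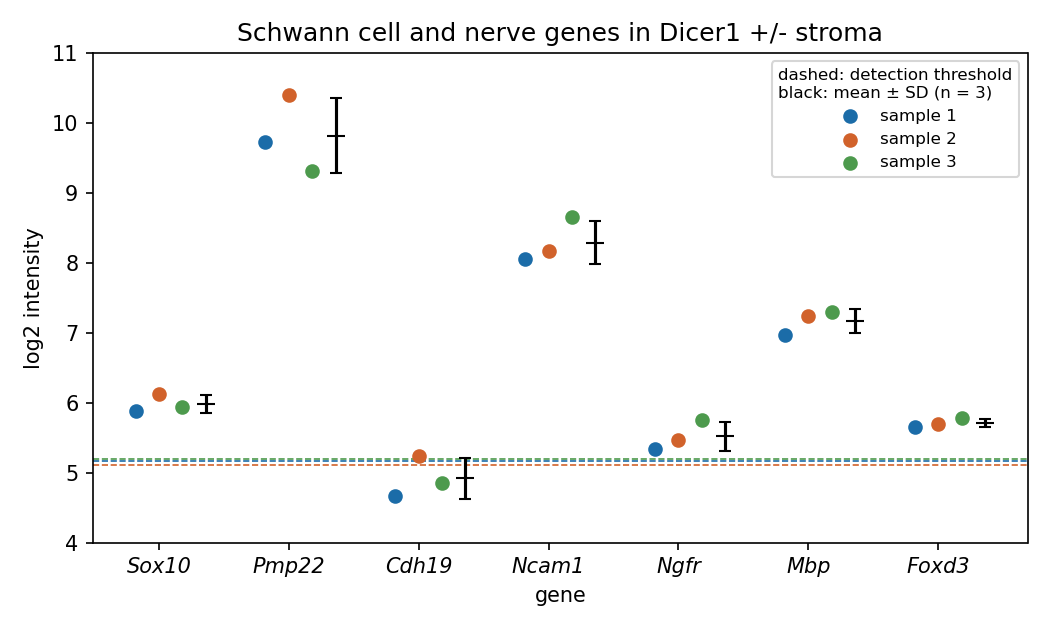
Log2 intensity (vertical axis) of the 7 genes in the 3 samples of Dicer1 +/- stroma. Points are single arrays, dashed lines the detection threshold of each array in its colour, and the black mark the mean with its SD (n = 3); Pmp22, Ncam1 and Mbp sit well above the lines, Sox10, Foxd3 and Ngfr just above them, and Cdh19 crosses them in sample 2 alone.

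The transcription factors were close to background, where differences between samples are compressed. Sox10 stood at 5.88 in sample 1, 6.12 in sample 2 and 5.94 in sample 3 (mean 5.98 ± 0.13, SD, n = 3). It was above the threshold by 0.72, 1.01 and 0.74, and 30, 26 and 34 of the 1438 receptor probe sets were as bright or brighter. The 3 values lay within 0.24 of each other, a 1.18-fold span, and within 0.06 without sample 2, the sample that carried the gland genes. Whether gland cells contributed to the Sox10 signal in sample 2 was not tested. Foxd3, which maintains crest progenitors, stood at 5.65, 5.70 and 5.78 (mean 5.71 ± 0.064, SD, n = 3), and 45, 46 and 40 receptor probe sets reached its level. Its range of 0.13 was the narrowest of the 7.

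Ngfr, which encodes the p75 receptor that binds all neurotrophins, cleared the threshold by the least of the detected genes. Its values were 5.34, 5.46 and 5.75 in samples 1, 2 and 3 (mean 5.52 ± 0.21, SD, n = 3), or 0.18, 0.34 and 0.55 above the threshold. Sample 3 was the highest, and samples 1 and 2 differed by 0.12. Ngfr was not detected when the detection level was each array's overall median.

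Of the adhesion molecules, Ncam1 was detected on every array and Cdh19 lay around the threshold. Ncam1, whose product NCAM binds its like on neighbouring cells, stood at 8.05 in sample 1, 8.17 in sample 2 and 8.65 in sample 3 (mean 8.29 ± 0.31, SD, n = 3). The 1.51-fold span came from sample 3, since samples 1 and 2 lay within 0.12 of each other. In these bulk samples more cells of a type and more RNA per cell cannot be told apart. A further probe set listed Ncam1 together with another gene and was not used. Cdh19, a type II cadherin found on Schwann cells and their precursors, stood at 4.67, 5.24 and 4.85 (mean 4.92 ± 0.29, SD, n = 3). It exceeded the threshold in sample 2 alone, by 0.13, and fell short by 0.49 and 0.35 in samples 1 and 3, where 116 and 98 receptor probe sets were as bright or brighter. A value below this level does not show that the transcript was missing, and with the 90th percentile of the receptors as the level Cdh19 passed on all arrays.

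Both genes of myelin proteins were well above background, and Pmp22 varied most of the 7. Pmp22, a tetraspan protein of compact myelin, stood at 9.73 in sample 1, 10.40 in sample 2 and 9.32 in sample 3 (mean 9.82 ± 0.54, SD, n = 3). It was the only one of the 7 whose range exceeded 1 on the log2 scale, at 1.08 or 2.11-fold, beside 5.7% of 13636 named genes detected on at least 1 array. The range was 0.40 without sample 2 and 0.68 without sample 3, and leaving out the highest or lowest sample lowers any range by construction. Mbp, the protein that holds the inner faces of the myelin membrane together, stood at 6.97, 7.24 and 7.29 (mean 7.17 ± 0.17, SD, n = 3). Samples 2 and 3 lay within 0.05 of each other, with sample 1 lower. The probe set does not separate golli from classic Mbp transcripts in the annotation used here.

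The 7 genes did not move as a block. Sox10, Pmp22 and Cdh19 were highest in sample 2, and Ncam1, Ngfr, Mbp and Foxd3 in sample 3, where the shares over all detected genes were 32.5% and 32.8%. What 6 of them had in common was sample 1 as the lowest, which held for 31.2% of all genes detected on at least 1 array; the exception, Pmp22, was lowest in sample 3, as were 33.3% of all. The median deviation from each gene's own mean was -0.18, 0.07 and 0.07 in samples 1, 2 and 3, a span of 0.25. Over all detected genes the span was 0.01, which is near 0 because the arrays share a scale, and over the 21 other lists it ran from 0.04 to 1.7, so nothing is read from the span of the 7. Without sample 1 this span was 0.05. The median range of the 7 was 0.41, against 0.31 over all detected genes.

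Lists of other genes of the Schwann cell programme, chosen for their known roles, gave a mixed picture. Of 40 measured genes in 3 lists (myelin, regulators, and markers outside myelin) 28 were detected (70%, beside 60.5% of all named genes), and 11 passed the 99th percentile (27.5%, beside 38.1%). Of the 30 detected on at least 1 array, sample 1 was the lowest for 15 (50%, beside 31.2% of all such genes) and sample 2 the highest for 15 (50%, beside 32.5%). The lists were written with earlier results of these data known, and their counts are descriptions.

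Among myelin genes 7 of 12 were detected (58.3%), close to the share of all genes, and Drp2, a dystrophin-related scaffold of the Schwann cell surface, alone passed the 99th percentile, at 6.98, 6.72 and 7.0 in samples 1, 2 and 3. Of the list, 4 genes lay below the threshold on every array, Mag, Pmp2, Mal and Gjb1, the last named after its values were seen. Mag, an adhesion protein of the inner myelin face, was at 4.51, 4.66 and 4.69, Pmp2, a fatty acid binding protein of peripheral myelin, at 3.41, 3.88 and 3.70, and Mal, a myelin proteolipid, at 4.97, 5.0 and 4.79. Cnp, an enzyme of myelinating glia that other cells also make, was detected at 6.29, 6.39 and 6.34. Gjc3, a glial gap junction protein, was detected at 5.34, 5.91 and 6.12, with the largest range among the detected genes of this list, 0.78. The ranges of Mag, Pmp2 and Mal were 0.18, 0.48 and 0.21, among values that all lay below the threshold.

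Of the regulators 10 of 14 were detected (71.4%, beside 60.5% of all named genes). Egr2, the zinc finger factor that switches on myelination and is also induced in activated macrophages and lymphocytes, stood at 8.09, 8.70 and 8.45 in samples 1, 2 and 3, and its cofactor Nab1 at 7.64, 7.62 and 7.70. Pou3f1, which precedes Egr2 in the Schwann lineage, was near the threshold at 5.33, 5.62 and 5.30, and its relative Pou3f2 was below it at 4.0, 4.0 and 4.01. Nfatc4, a calcium-regulated partner of Sox10 in Schwann cells, varied most, at 6.78, 7.18 and 6.09, with sample 2 the highest and sample 3 the lowest as for Pmp22.

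Markers outside myelin were detected in 11 of 14 cases (78.6%, beside 60.5% of all named genes), and 4 passed the 99th percentile (28.6%, beside 38.1%). S100b, a calcium-binding protein of glia that fat and cartilage cells also make, was at 8.11, 8.37 and 8.13 in samples 1, 2 and 3, and L1cam, an adhesion molecule of axons and Schwann cells that do not myelinate, at 6.90, 6.96 and 7.36. Erbb3, the receptor through which axonal neuregulin keeps Schwann cells alive, was detected at 5.99, 6.22 and 6.25, between the thresholds as Sox10 was. Gfap was below the threshold at 4.92, 4.98 and 5.13. Scn7a, a sodium-channel-related protein of Schwann cells, had the largest range, at 8.20, 8.63 and 7.12, followed by Matn2, a matrix protein of nerve and connective tissue, at 8.61, 8.80 and 7.74. These 2 genes shared the order of Pmp22, with sample 2 above sample 1 and sample 3 below it. The share of all genes with this order, or with the other sample orders compared in this report, was not computed.

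Of the neuronal genes 6 of 18 were detected (33.3%, beside 60.5%), and the main axonal filaments were not among them. The neurofilament genes Nefl, Nefm and Nefh, which build the axon's skeleton, were at 3.54, 3.54 and 3.42, at 3.17, 3.17 and 3.19, and at 5.13, 5.13 and 5.15 in samples 1, 2 and 3, with Nefh above the threshold in sample 2 alone. Prph, a filament of peripheral neurons, passed in samples 1 and 2, at 5.34, 5.56 and 5.01. Uchl1, a ubiquitin hydrolase of neurons and other cells, was the 1 gene of this list past the 99th percentile, at 6.81, 7.26 and 6.65. The rest of the 6 lay between the thresholds on all arrays. They were Map2 and Syp, with Elavl3, Stmn2 and Rbfox3, which were named after their values were seen. Of the genes for the sheath around nerve bundles and the tissue within them 8 of 11 were detected (72.7%, beside 60.5%). Sample 2 was the highest for 8 of the 11 (72.7%, beside 32.5% of genes detected on at least 1 array). Meox1 and Cldn1 had the largest ranges. Meox1 was at 8.57, 9.47 and 7.51, and Cldn1, a tight junction protein, at 7.53, 8.43 and 8.67. Members of this list are also made by fibroblasts or epithelium.

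**Figure D2:**
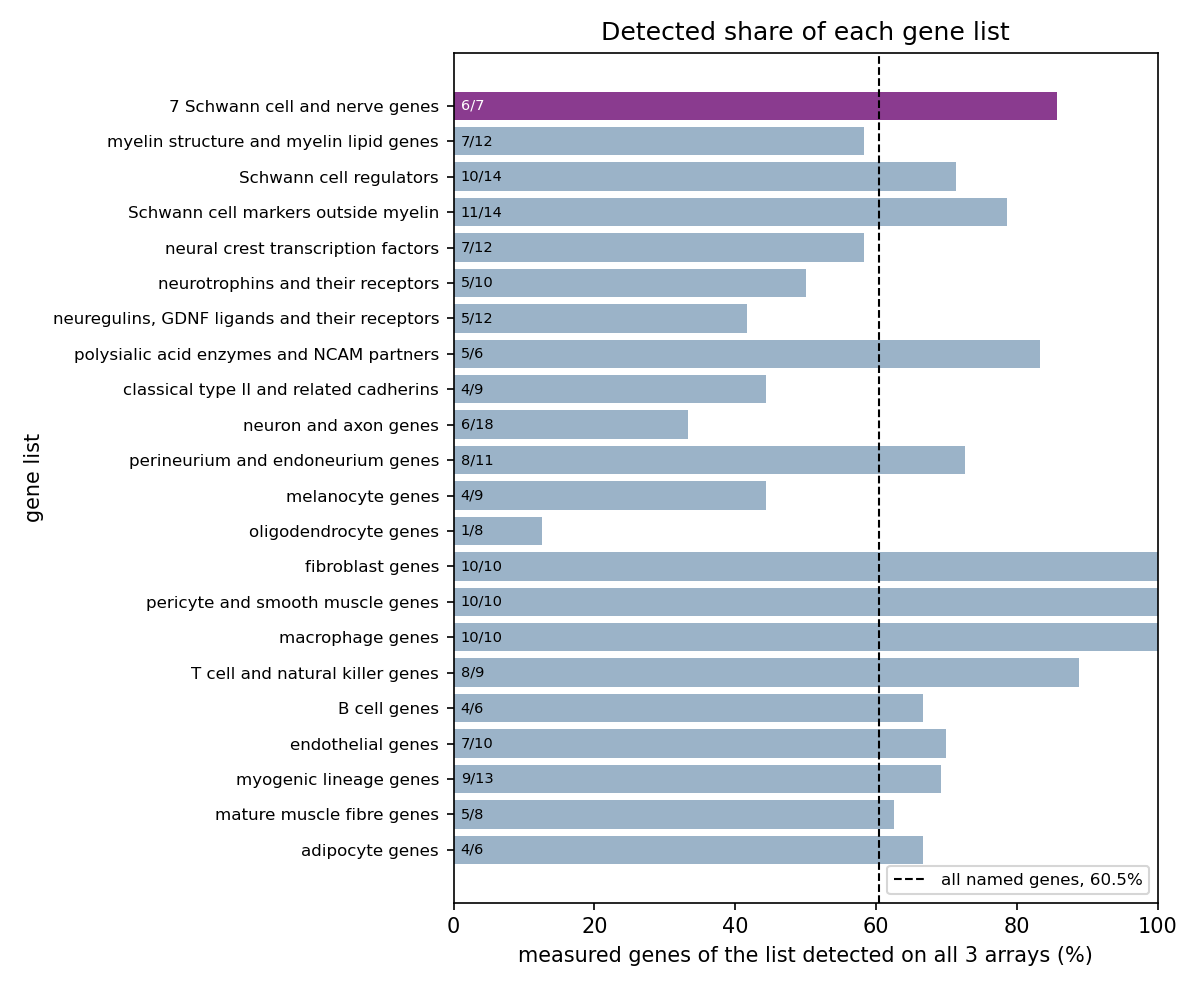
Share of the measured genes of each list detected on all 3 arrays (horizontal axis, percent), with counts at the left of each bar and the 7 Schwann cell and nerve genes in purple. The dashed line marks the 60.5% of all named genes; fibroblast, pericyte and macrophage lists reach 100%, neuronal genes 33.3% and oligodendrocyte genes 12.5%.

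The ligand and receptor partners of the 7 genes were next examined. Among neurotrophins and their receptors 5 of 10 were detected (50%, below the 60.5% of all named genes). Bdnf and Ntf5, ligands of p75, lay below the threshold at 4.92, 4.92 and 4.74 and at 3.87, 3.94 and 3.99 in samples 1, 2 and 3. The kinase receptor Ntrk3 was detected at 5.84, 5.87 and 5.40, and Ntrk2 in samples 1 and 2 alone, at 5.18, 5.73 and 4.78. Sort1, which encodes sortilin, the co-receptor of p75 for uncleaved neurotrophins and a sorting protein of many cells, was at 8.13, 8.61 and 9.19, and like Ngfr it was lowest in sample 1 and highest in sample 3. Of neuregulins, GDNF ligands and their receptors 5 of 12 were detected (41.7%), among them Nrg1 at 6.98, 6.98 and 7.33, its receptor subunit Erbb2 at 6.35, 6.88 and 6.62, and Gfra2 at 8.33, 8.79 and 8.44.

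NCAM carries polysialic acid when cells are immature or migrating. Both enzymes that build it were detected, St8sia2 at 6.17, 6.29 and 6.56 and St8sia4, which leukocytes also use, at 9.14, 8.50 and 8.95 in samples 1, 2 and 3. St8sia2 had the sample order of Ncam1 and St8sia4 did not. The paralogue Ncam2 was below the threshold, with the same value of 3.65 on each array. Gap43, a growth-associated protein of axons and immature Schwann cells, was at 5.74, 6.47 and 5.42. Of 9 other cadherins 4 were detected (44.4%, beside 60.5%). Cdh1, the epithelial cadherin, had the largest range of these, 1.66, at 7.16, 6.47 and 8.13, and was highest in sample 3 as Ncam1 was. Cdh2, the neural cadherin that muscle and mesenchyme also carry, was at 6.19, 6.04 and 6.31. The others detected were Cdh11, the cadherin of fibroblasts and other mesenchyme, at 9.48, 9.85 and 9.43, and Cdh6, found in crest derivatives, at 5.63, 6.19 and 6.02. Cdh7 was below the threshold.

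Of 12 further crest transcription factors 7 were detected (58.3%), near the 60.5% of all named genes. Among these were Snai1 and Snai2, repressors that mesenchymal cells share with the crest, at 7.74, 7.89 and 8.10 and at 8.64, 8.64 and 8.33 in samples 1, 2 and 3. Twist1, another mesenchymal factor, was at 6.96, 7.44 and 6.55, and Sox9, which crest and cartilage use, at 7.58, 8.10 and 8.35. The remaining detected factors were Sox5 at 5.53, 6.06 and 5.87, Sox8 at 6.38, 6.68 and 6.48, and Ets1 at 8.88, 8.55 and 8.83. Sox8 and Ets1 were named after their values were seen. Pax3 and Tfap2b lay below the threshold at 4.47, 4.63 and 5.02 and at 3.92, 4.06 and 3.82. Melanocytes and oligodendrocytes also make Sox10. Of 9 melanocyte genes 4 were detected (44.4%). The pigment enzymes Tyr, Tyrp1 and Dct were not detected on any array, while Mitf, the melanocyte master factor that mast cells and macrophages also use, was at 7.53, 7.57 and 7.24. Ednrb, an endothelin receptor of crest cells that pericytes and fibroblasts can also make, was at 8.04, 8.67 and 6.68, the order of Pmp22, and Kit, a receptor shared with mast cells and blood progenitors, at 7.31, 7.50 and 7.97, all past the 99th percentile. Pmel, a protein of the pigment granule named after its values were seen, was at 6.02, 5.96 and 6.14. Of 8 oligodendrocyte genes 1 was detected (12.5%), Cldn11, at 5.79, 6.09 and 6.21.

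**Figure D3:**
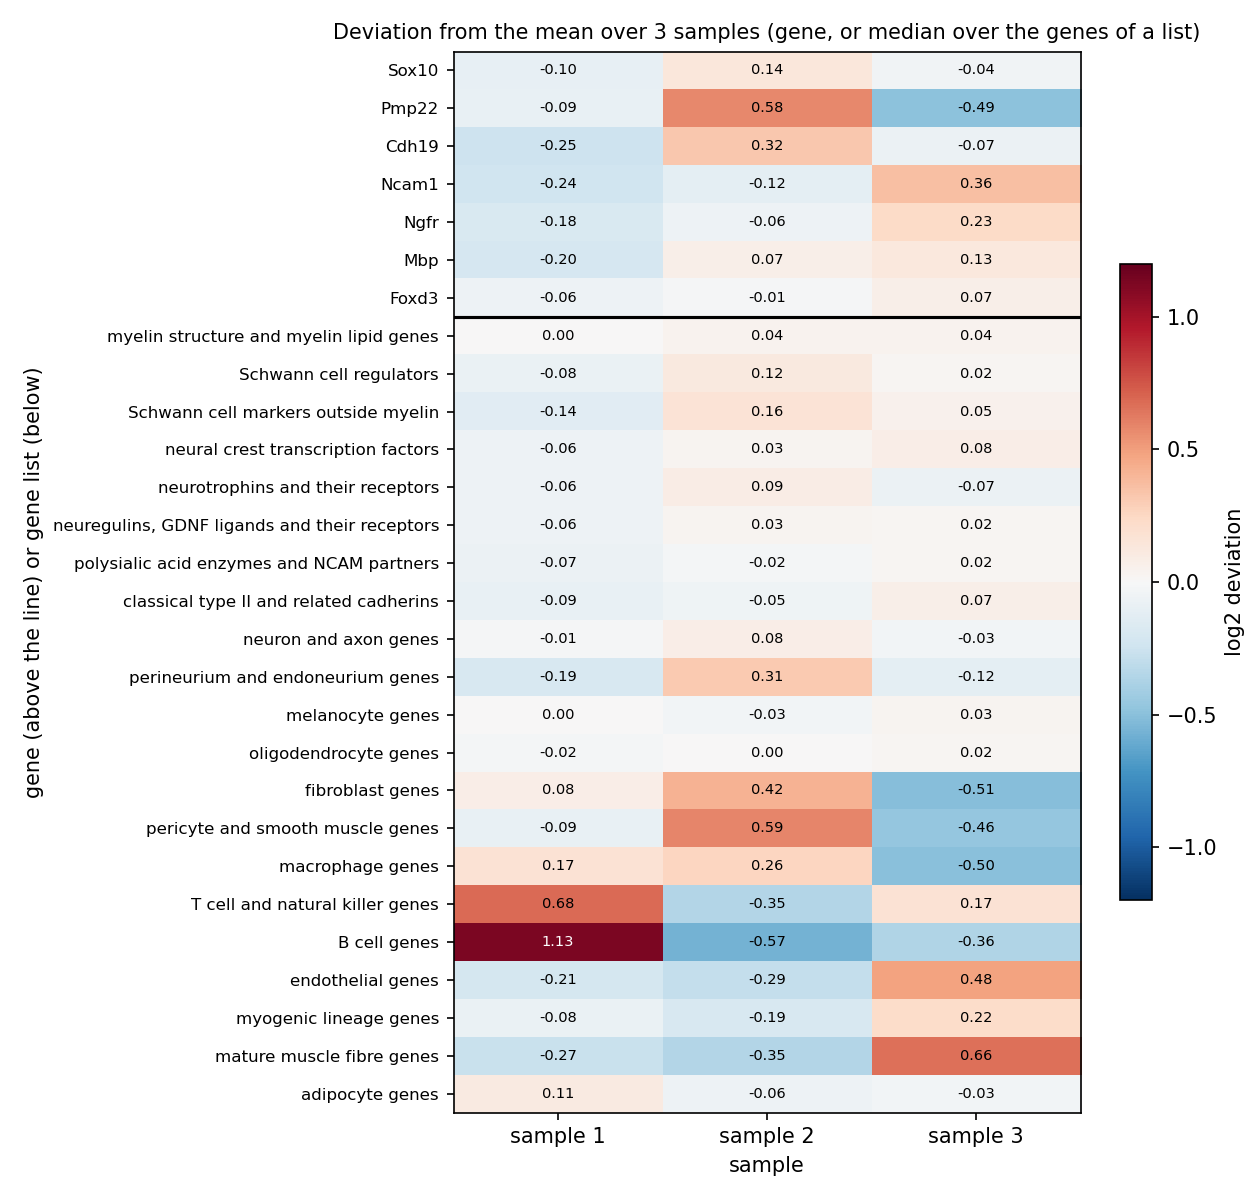
Deviation of each sample from the gene's mean over the 3 samples on the log2 scale (colour and printed value) for the 7 genes, and the median of that deviation over each list below the line. Pmp22 shares the sign of the fibroblast and pericyte lists in samples 2 and 3, and Ncam1 that of the endothelial and muscle lists in samples 1, 2 and 3. Other lists share these signs, among them the perineurium and endoneurium list for Pmp22 and the cadherin and polysialic acid lists for Ncam1.

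Markers of other cells that can make Pmp22 or Ncam1 were set beside these 2 genes. For Pmp22, whose deviations were -0.09, 0.58 and -0.49 in samples 1, 2 and 3, the fibroblast list had medians of 0.08, 0.42 and -0.51 and the pericyte and smooth muscle list -0.09, 0.59 and -0.46. All 10 genes of each list were detected (100%, beside 60.5% of all named genes). In each list 9 of 10 were highest in sample 2 (90%, beside 32.5% of genes detected on at least 1 array). Summed linear intensities were 12600, 16900 and 8530 for fibroblast genes and 4940, 8180 and 3660 for pericyte genes. No gene of either list was below the threshold on any array. Of the nerve lists, that for perineurium and endoneurium had medians of -0.19, 0.31 and -0.12, and that for markers outside myelin -0.14, 0.16 and 0.05. Macrophage genes, all 10 detected, had medians of 0.17, 0.26 and -0.50 and sums of 15200, 15900 and 12700. The part of these cells in the Pmp22 values was not tested.

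For Ncam1, with deviations of -0.24, -0.12 and 0.36, the myogenic lineage list had medians of -0.08, -0.19 and 0.22 and the mature muscle fibre list -0.27, -0.35 and 0.66. Of 13 myogenic genes 9 were detected (69.2%, beside 60.5% of all named genes), and Myf6 was below the threshold on every array. The summed linear intensities of the 13 were 1220, 1050 and 1610 in samples 1, 2 and 3. Of the 13 genes 9, the undetected Myf6 included, were highest in sample 3 (69.2%, beside 32.8% of genes detected on at least 1 array). Among the 9 were Tnnt2, a troponin of developing muscle, at 7.86, 7.32 and 8.80, and Mymk, which encodes a protein of myoblast fusion, at 7.31, 7.02 and 7.59. The lineage factors Myod1 and Myog, with exactly equal values in samples 1 and 3, were at 6.42, 6.30 and 6.42 and at 7.37, 6.95 and 7.37. Of 8 fibre genes 5 were detected (62.5%, near the 60.5% of all named genes), with sums of 746, 682 and 1510. Myh2 and Myh4 were not detected anywhere and were named for this reason after their values were seen. Endothelial genes, which the gate was meant to leave out, had medians of -0.21, -0.29 and 0.48 and sums of 627, 559 and 1000. Of these 10 genes 7 were detected (70%, beside 60.5% of all named genes), and 1 passed the 99th percentile (10%, beside 38.1%). The medians of the myogenic, fibre and endothelial lists were lowest in sample 2, while Ncam1 was lowest in sample 1. The part of muscle lineage cells or endothelium in the Ncam1 values was not tested.

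Lymphocyte lists were highest in sample 1, where Mbp was lowest. T cell and natural killer genes had medians of 0.68, -0.35 and 0.17 and B cell genes of 1.13, -0.57 and -0.36 in samples 1, 2 and 3. Of 9 T cell and natural killer genes 8 were detected (88.9%, beside 60.5% of all named genes), with sums of 1670, 659 and 1340. Only 1 of the 9 passed the 99th percentile (11.1%, beside 38.1%). Klrb1c, named after its values were seen, was not detected anywhere. Of 6 B cell genes 4 were detected (66.7%), with sums of 3330, 1460 and 1450. Whether the larger lymphocyte signal or the difference in sex-linked genes bears on the lower values of 6 of the 7 genes in sample 1 was not tested.

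Genes whose profile over the 3 samples was nearest to that of a member were sought for the 3 members with a range above 0.5, by the largest absolute difference between deviations in any sample, among genes detected on all arrays. Nearest to Pmp22 were Fxyd1, a regulator of the sodium pump (8.66, 9.34 and 8.25, largest difference 0.0054), Scoc (5.89, 6.57 and 5.50, 0.0096) and Creb5 (8.49, 9.21 and 8.13, 0.030), and 66 of 12507 genes lay within 0.1. Nearest to Cdh19 were the thyroid hormone receptor Thra (0.0030), the clock repressor Nr1d2 (0.0072) and Dkk3 (0.013), with 222 of 12508 genes within 0.1. Nearest to Ncam1 were the peptidase Rnpep (0.0038), the cell cycle factor E2f2 (0.0049) and Vps37c (0.0059), with 343 of 12507 within 0.1. With 3 samples many genes share any given profile, and these likenesses are descriptions over 3 points.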

How the data were processed

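The values are log2 intensities as the authors deposited them, for 31873 probe sets on 3 arrays. The tools included Partek, per the submitters' processing notes. No source used here gives its role or the background correction, normalization or probe summarization, and the log2 scale is inferred from values that reach 13.18. The platform annotation gave a single symbol for 23094 probe sets, and only these were used. A gene was represented by its probe set with the highest mean.

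Medians, ranges, deviations and detection calls were computed in Python 3.11.15 with pandas 2.3.3. The code was tested on simulated data with shifts well above the range threshold in bright genes. Calls near the detection or range threshold were not covered by that test. No test between groups or samples was possible with 1 group and 1 array per sample, and the number of arrays limits the precision. Summed intensities are sums of linear values (2 to the power of the log2 value).

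The 7 genes, 21 further lists (231 symbols, 217 measured, 14 not analysed here) and the rules were chosen with earlier results of these data known. Genes eligible to be named were the members, the first 4 measured and the 3 detected genes of largest range in each list, and the 3 nearest profiles. The text names only part of these, a selection made with their values known, and marks the exceptions; CpG counts were added after the data were seen. Alternatives changed the detection level, scaling, probe set summary and range threshold, and left out each sample in turn.

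None of the 7 genes had exactly equal deposited values (no tolerance) on any pair of arrays, and 25 of the 217 other list genes did, which can lower their range.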

Additional observations from a re-analysis of the deposited data

How the results depend on the processing

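The number of the 7 genes detected was 6 with each sample left out in turn and under both rescalings, and 7, 5 and 3 with the 90th percentile of the receptors, the median of all probe sets and the 99th percentile as the level, where 72%, 57.4% and 38.1% of all named genes passed. With the 99th percentile Sox10, Foxd3, Ngfr and Cdh19 were the members not detected, and 76 list genes passed in place of 140; fewer genes can pass a higher level by construction. Over the 3 leave-one-out settings the list genes detected ran from 142 to 145, where fewer arrays make the rule easier to meet. The number of members with a range above 1 was 0 to 1 with a sample left out, where 1.84% to 3.49% of genes passed. Leaving out a sample cannot raise a range. With a threshold of 0.58, which 20.3% of genes passed, the number was 2. The span of the sample medians was 0.05 to 0.24 with a sample left out, 0.25 under quantile normalization and 0.29 with the mean of the members. All 42 means and ranges of the members recomputed under quantile normalization, median centring and the mean of probe sets stayed within the SD of the gene. Each of the 7 has 1 probe set, so the mean of probe sets could not change its values. The array medians were already near equal, so median centring could change little. No paired analysis was possible because there is 1 group. Sox10, Foxd3, Ngfr and Cdh19 lie so near background that their ranges may understate differences between samples.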
